A study of Mus musculus with 18 samples.

Results

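The genes described here encode the subunits of the oxidative phosphorylation system, the 5 enzyme complexes of the inner mitochondrial membrane. They were picked by symbol, with earlier results of these data known: Nduf genes of complex I, Sdh genes of complex II, Uqcr genes of complex III, Cox genes of complex IV, Atp5 genes of complex V, and the protein-coding genes of mitochondrial DNA (mtDNA). The rule found 97 of the 51912 genes in the table, of which 84 are nuclear and 13 are mitochondrial. The nuclear genes comprise 36 of complex I, 4 of complex II, 8 of complex III, 19 of complex IV, where Ndufa4 was placed, and 17 of complex V. The mitochondrial genes comprise 7 of complex I, 1 of complex III, 3 of complex IV and 2 of complex V. A filter on low counts kept 79 of the 84 nuclear and all 13 mitochondrial genes for testing, together with the other genes of the table that passed it, 15710 in all. The rule leaves out 2 true subunits, Cyc1 of complex III and Ndufab1 of complex I, and takes in a few genes that are not structural subunits, such as Cox7a2l. Another is Ndufa4l2, a relative of Ndufa4, which is counted with complex I by its symbol only.

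RNA was sequenced from mouse embryonic fibroblasts (MEFs), primary cells cultured from the bodies of embryos after the head, heart and liver had been taken out, at passage 1. The 6 genotypes were Pole4+/+ (labelled wt) or Pole4-/- (null), each with Trp53+/+ (wt), Trp53+/- (het) or Trp53-/- (null), and each had 3 libraries. All cultures were kept in 5% oxygen and 15% serum, and the genotypes are those of the whole embryo, not of a chosen cell type. POLE4 is an accessory subunit of DNA polymerase epsilon, the enzyme that copies the leading strand, and TRP53 is the tumour suppressor that induces the CDK inhibitor gene Cdkn1a. The labels do not say which libraries of a genotype came from separate embryos, so a p-value measures the spread between these libraries, which may in part be technical.

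Complex I takes electrons from NADH and complex II from succinate, complex III passes them from ubiquinol to cytochrome c, and complex IV hands them to oxygen. Complexes I, III and IV pump protons, and complex V, the ATP synthase, lets them flow back to make ATP. Complexes I, III, IV and V are built from both genomes, while complex II is wholly nuclear. The mitochondrial genes are read from each strand of a small circular genome as long transcripts that are then cut into single messages, whereas each nuclear subunit has a promoter of its own. A few subunits of complex IV have isoforms used in heart, skeletal muscle, lung or testis.

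The libraries held 9535971 to 35319918 counts, of which 0.968% to 42.5% fell on ribosomal RNA. The knocked-out genes followed the labels: Trp53 lay at 86.6 to 96.0 CPM (counts as a share of the library total, after scaling by the trimmed mean of M-values, TMM) in Pole4+/+ Trp53+/+ and at 64.2 to 72.6 in Pole4-/- Trp53+/+ cells, against 8.65 to 12.04 and 10.02 to 12.1 in the matching Trp53-/- cells. Pole4 lay at 16.2 to 22.9 CPM in Pole4+/+ Trp53+/+ and 9.26 to 11.2 CPM in Pole4-/- Trp53+/+ cells, so reads of the gene remained in the knockout. All 10 fibroblast markers were kept by the filter and summed to between 13708 and 30936 CPM, while the 6 erythroid markers never summed to more than 0.969 CPM. By Xist, 7 libraries were male, among them all 3 Pole4+/+ Trp53+/- libraries and none of the Pole4+/+ Trp53+/+ or Pole4+/+ Trp53-/- libraries. Male libraries were 2 of 3 in Pole4-/- Trp53+/+ cells, and 1 of 3 each in Pole4-/- Trp53+/- and Pole4-/- Trp53-/- cells, so each of these genotypes came from more than 1 embryo.

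Chromosome 1 carries near-identical copies of 7 of the 13 mitochondrial genes, and the counts of some of them could not be read singly. The copies lie side by side on the minus strand at chr1:24611535-24616197 (GRCm38) as a stretch of mtDNA inserted into the nuclear genome. mt-Co2, which encodes a copper-binding catalytic subunit of complex IV, matched Gm28661 without a mismatch over 681 of its 684 bases. mt-Atp6, a proton channel subunit of complex V, matched Gm10925 over 678 of 681 bases and mt-Co3 of complex IV matched Gm28437 over 783 of 784 bases, both without a mismatch. mt-Nd4l matched Gm10222 over 294 of 297 bases and mt-Nd4 matched Gm28439 over 876 of 1378 bases, again without a mismatch. Only 2 pairs could be told apart by sequence within their match: mt-Nd3 and Gm28438 differed at 1 base of 345 (T3C, counted from the first base of mt-Nd3), and mt-Co1 and Gm29216 at 1 base of 483 (A1066T, counted from the first base of mt-Co1). The first 60 bases of mt-Co2 and of its copy, and the 60 bases that hold the differing base of the other pairs, are shown because they hold the bases, if any, by which the genes of a pair differ within their match; capitals mark the differing base, and the sequences are GENCODE transcripts on GRCm38.
mt-Co2 (chrM:7013-7072, plus strand): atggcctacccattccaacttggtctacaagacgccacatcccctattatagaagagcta
Gm28661 (chr1:24615506-24615565, minus strand): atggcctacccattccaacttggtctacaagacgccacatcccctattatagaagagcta
mt-Nd3 (chrM:9459-9518, plus strand): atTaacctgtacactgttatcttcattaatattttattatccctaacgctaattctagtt
Gm28438 (chr1:24613060-24613119, minus strand): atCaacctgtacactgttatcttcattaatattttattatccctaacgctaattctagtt
mt-Co1 (chrM:6390-6449, plus strand): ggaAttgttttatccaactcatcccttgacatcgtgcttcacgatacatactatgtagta
Gm29216 (chr1:24616129-24616188, minus strand): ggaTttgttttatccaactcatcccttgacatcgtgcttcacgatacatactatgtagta

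The counts of the pairs were divided unevenly between libraries. mt-Co2 held between 0 and 77.5 CPM in 17 libraries and 2334 CPM in Pole4-/- Trp53+/+ replicate 3. Gm28661 lay at 715 CPM in that library and reached 3156 CPM elsewhere. The sum of both ran from 1991 to 3156 CPM, so mt-Co2 moved far more than the sum of the pair. mt-Co3 ran from 81.0 to 1803 CPM alone, with 1803 CPM in Pole4+/+ Trp53+/- replicate 3 and 754 CPM in Pole4+/+ Trp53-/- replicate 3, and from 1565 to 2952 CPM with its copy. mt-Atp6 had fewer counts than Gm10925 in all 18 libraries, at 189.7 to 742 CPM against 1666 to 3606 CPM. In contrast, mt-Nd3 kept all the counts of its pair, mt-Nd4l and mt-Nd4 kept at least 94.4% and 92.8%, and mt-Co1 kept 86.2% to 94.5%. From here on, mitochondrial values with their copies are the sums of each pair, a way of counting chosen after the data had been seen; values without the copies are given beside them where the call differs.

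**Figure D1:**
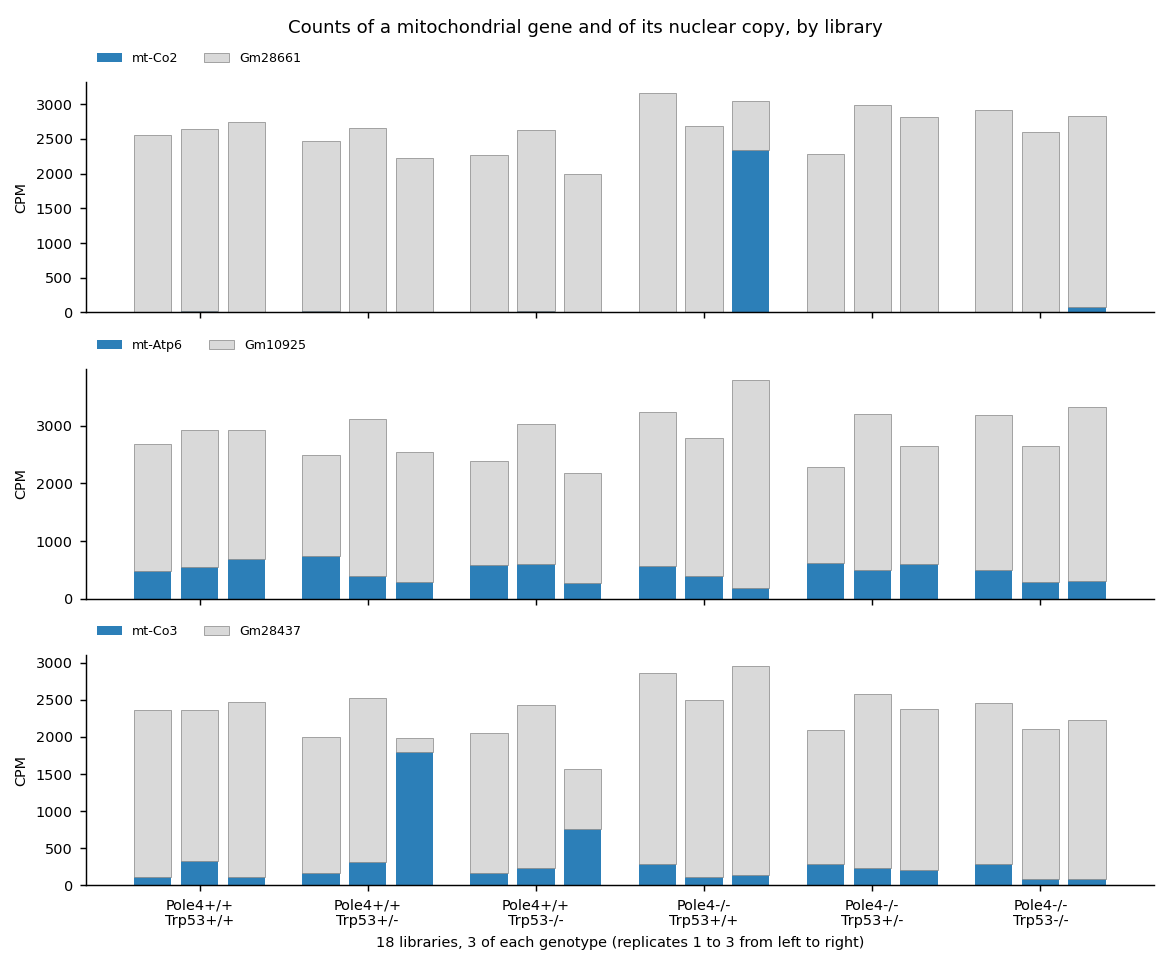
Each bar is 1 of the 18 libraries and its height is the summed CPM of a mitochondrial gene (blue) and its copy on chromosome 1 (grey), for mt-Co2 (top), mt-Atp6 (middle) and mt-Co3 (bottom). The blue share of mt-Co2 was near 0 in 17 libraries and 76.6% in Pole4-/- Trp53+/+ replicate 3, whereas the bar heights stayed between 1991 and 3156 CPM.

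Some nuclear members have copies too. A transcript elsewhere in the genome matched 11 of the 84 nuclear members at 99% identity or more over at least 100 bases. For 7 of them under 5% of the joint counts lay on the copies. The exceptions were Atp5g2, a membrane subunit of complex V with 88.5% of the joint counts on Gm10175 and Gm10231, Ndufb4 with 55.5% on Ndufb4c, Cox7c with 41.2%, and Atp5l with 25%. The levels of these 4 genes are uncertain, and none of them was called in any comparison.

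Per kilobase of merged exons, the means of 12 mitochondrial messages stood above that of every nuclear one, even without the copies. The mean of mt-Co2 did so through Pole4-/- Trp53+/+ replicate 3, since its other 17 libraries lay between 0 and 77.5 CPM. mt-Co1 averaged 4867 CPM per kilobase over the 18 libraries without its copy, and mt-Nd1, mt-Cytb and mt-Atp8 followed at means of 2799, 2608 and 2129. The nuclear member with the highest mean was Atp5b, the catalytic beta subunit of complex V, at 154 CPM per kilobase. Cox6b1 of complex IV at 121 and Atp5a1, the alpha subunit of complex V, at 119 came next, and the ranges of all 3 over libraries overlapped. Merged exons count every annotated isoform, which lowers the value of a gene with long minor isoforms such as Ndufb2.

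As shares of the counts, the summed nuclear genes were lower and the mitochondrial genes mostly higher in Pole4-/- Trp53+/+ cells than in the other genotypes. As a share of the counts outside ribosomal RNA, the 84 nuclear genes took 0.482, 0.485 and 0.456% in the Pole4-/- Trp53+/+ libraries and 0.520 to 0.590% in the other 15. The 13 mitochondrial genes with their copies took 4.08, 3.61 and 4.34% in Pole4-/- Trp53+/+ and 2.81 to 3.89% elsewhere. Hence the nuclear shares did not overlap with any other library, while the mitochondrial shares did, with replicate 2 inside the range of the others. On the TMM scale the nuclear sums overlapped too, at 3976 to 4208 against 4180.2 to 5146 CPM. By complex, only the sum of complex V was apart, at 1596 to 1629 against 1707 to 2217 CPM. The sums of complexes I, II and III overlapped, at 991 to 1084 against 1037 to 1254 CPM, 236 to 258 against 253 to 294 CPM and 354 to 388 against 356 to 467 CPM. For complex IV the range of Pole4-/- Trp53+/+ cells lay within that of the others, at 799.8 to 859 against 727 to 955 CPM. The ratio of mitochondrial to nuclear counts was 8.46, 7.44 and 9.51 in Pole4-/- Trp53+/+ cells. It was 6.36, 6.25 and 6.99 in Pole4+/+ Trp53+/+, 5.59, 6.03 and 6.01 in Pole4+/+ Trp53+/- and 5.96, 5.55 and 5.34 in Pole4+/+ Trp53-/- cells. It was 5.39, 6.35 and 6.48 in Pole4-/- Trp53+/- and 6.27, 6.19 and 7.44 in Pole4-/- Trp53-/- cells. In Pole4-/- Trp53+/+ libraries the share of ribosomal RNA was 7.11, 24.1 and 42.5%, in the same order, and the highest ratio lay in the library richest in ribosomal RNA. The Pole4-/- Trp53-/- libraries, at 24.7 to 30.0% ribosomal RNA, had lower ratios than the Pole4-/- Trp53+/+ library at 7.11%. The part of ribosomal RNA in the ratio was not tested. The ratio of replicate 2 equalled that of the nearest other library, Pole4-/- Trp53-/- replicate 3, to 3 digits. In bulk cultures more mitochondrial RNA per cell and more cells rich in it cannot be told apart. With 3 libraries against 3, an exact permutation test of such a sum cannot give a p under 0.1, and none was run.

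**Figure D2:**
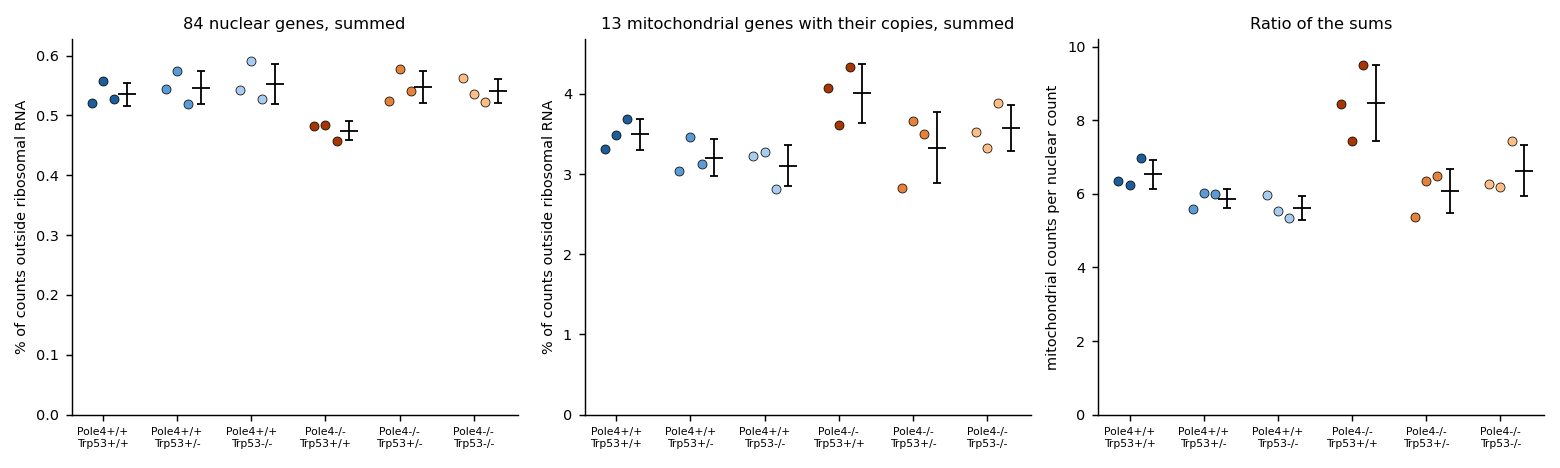
Points are libraries, grouped by genotype on the x axis, with mean ± SD of 3 libraries as a bar beside them. The panels plot the share of counts outside ribosomal RNA held by the 84 nuclear genes, the share held by the 13 mitochondrial genes with their copies, and the ratio of the sums; Pole4-/- Trp53+/+ cells have the lowest nuclear share (0.456 to 0.485%) and ratios of 7.44 to 9.51.

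With loss of TRP53 in Pole4-/- cells, more nuclear members were called higher than lower. The share called in either direction was below that of all genes tested. Of the mtDNA messages, mt-Nd4l, mt-Nd4 and mt-Nd5 were called lower. In Pole4-/- Trp53-/- against Pole4-/- Trp53+/+ cells, edgeR's quasi-likelihood test called 33 of the 92 tested members at a Benjamini-Hochberg adjusted p under 0.05, where 42.6% of all genes tested were called. Of the 79 nuclear members tested, 23 (29.1%) rose and 7 (8.86%) fell, against 21.8% and 20.8% of all genes. The share of nuclear members called in either direction was 38.0%. The median log2 fold change was 0.15 over the nuclear members and -0.018 over all genes. All libraries of one genotype lay above all of the other for 44 of 79 nuclear and 3 of 13 mitochondrial members, against 57% of all genes. The fold changes below are on the log2 scale, with SE, and gene coordinates are those of GRCm38. Without Pole4-/- Trp53+/+ replicate 3, 19 were called, and the excess of higher over lower members was lost, with 10 higher and 9 lower. Without Pole4-/- Trp53-/- replicate 3, 21 were called, 15 higher and 6 lower. With 1 of the other libraries left out, 14 to 21 members were higher and 4 to 10 lower. With log2 Xist as a covariate for sex, 26 were called. It was 4, with 1 higher and 3 lower, when libraries were scaled by their totals and not by TMM, which moved the median of all genes by -0.04. The fold change of Atp5b lay between 0.44 and 0.53 over all alternatives, with an adjusted p of at most 0.0556.

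**Figure D3:**
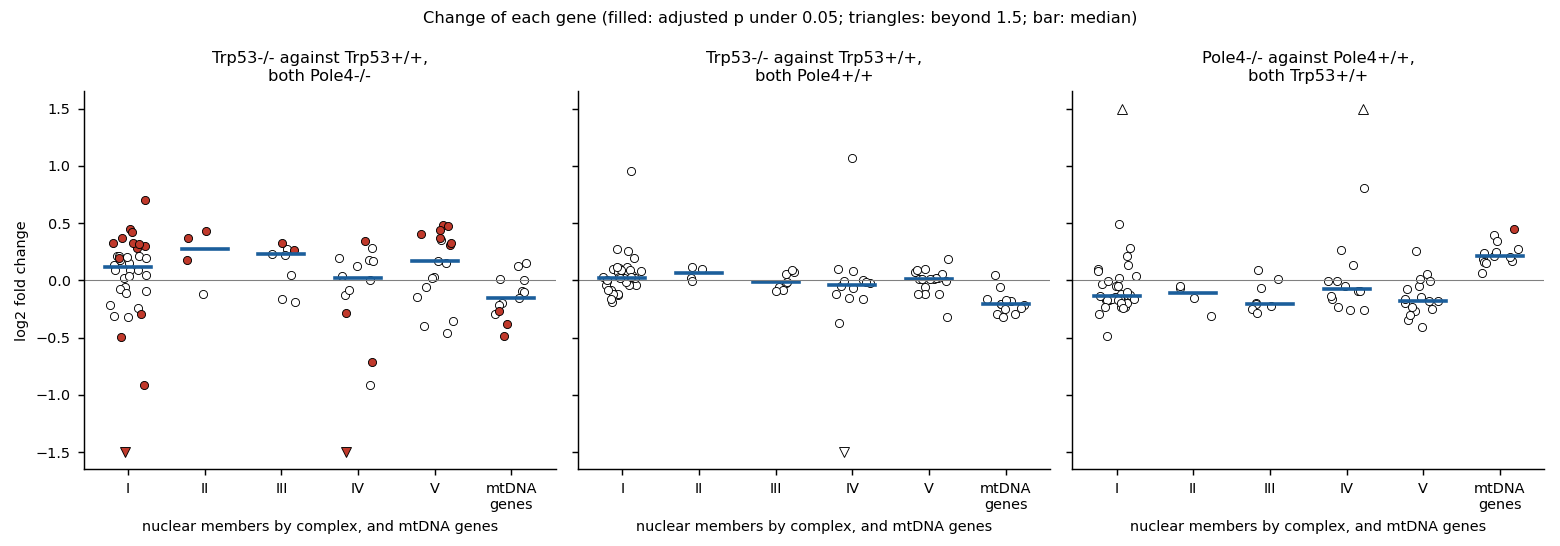
Each point is a gene, placed by complex on the x axis and by log2 fold change on the y axis, for 3 comparisons; mtDNA genes are summed with their copies. Filled points passed the test, bars are medians, and triangles mark genes beyond 1.5. In Pole4-/- cells lacking TRP53 (left) the nuclear medians lie at 0.12, 0.27, 0.23, 0.023 and 0.17 for complexes I to V, and the mtDNA genes at -0.16.

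Markers of cell types differed between the same groups. In Pole4-/- cells the 10 fibroblast markers summed to 24878 to 30936 CPM with Trp53+/+ and 13708 to 16508 CPM with Trp53-/-. The 10 skeletal muscle markers summed to 143 to 153 and 54.5 to 71.2 CPM, with 8 of them kept by the filter. The 6 epithelial markers summed to 2.06 to 2.67 and 4.39 to 20.2 CPM, and the 8 macrophage markers to 10.01 to 22.6 and 6.80 to 33.1 CPM. The cardiac muscle, endothelial and brown fat markers summed to at most 15.9 CPM in any library. The 6 neuronal markers summed to 52.6 to 61.6 and 65.4 to 89.4 CPM, without overlap. Between Pole4+/+ and Pole4-/- cells with Trp53+/+, the fibroblast sums were 16317 to 21989 and 24878 to 30936 CPM. The epithelial sums were 2.84 to 6.76 and 2.06 to 2.67 CPM. Between Pole4+/+ Trp53+/+ and Pole4+/+ Trp53-/- cells, the skeletal muscle sums were 115 to 153 and 47.3 to 52.7 CPM. The neuronal sums there were 50.5 to 59.0 and 68.0 to 88.1 CPM. The other marker sums overlapped in both comparisons. The part of these cells in the changes of the respiratory genes was not tested.

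Over all genes tested, 21.8% rose and 20.8% fell with loss of Trp53 in Pole4-/- cells. In complex I, 10 of 36 nuclear members (27.8%) rose and 4 (11.1%) fell. Among those that rose were genes of its conserved catalytic core, at 0.20 to 0.42: Ndufv1 and Ndufv2, which take part in NADH oxidation, and Ndufs1, Ndufs3, Ndufs7 and Ndufs8, which hold or support the iron-sulphur chain. The call of Ndufs3, at an adjusted p of 0.0498, held under 2 of 16 alternatives, and those of Ndufs8 and Ndufv1 under 10 each. Ndufv1 lay at 33.4, 28.9 and 28.4 CPM in Pole4-/- Trp53+/+ and at 39.99, 34.8 and 38.3 CPM in Pole4-/- Trp53-/- libraries, a change of 0.32 ± 0.11 (SE, adjusted p = 0.0311). The largest increase was that of Ndufa12 (chr10:94198720-94221443), an accessory subunit of the arm that projects into the matrix, by 0.71 ± 0.14 (SE, adjusted p = 0.00121). Its level was 28.9, 28.9 and 27.6 CPM without and 46.4, 45.2 and 47.9 CPM with loss of Trp53, and 39.1, 42.5 and 38.2 CPM in Pole4+/+ Trp53+/+ cells, and the low group was thus Pole4-/- Trp53+/+. Ndufa5, Ndufa9 and Ndufa10, accessory subunits, rose by 0.45, 0.37 and 0.30. Ndufb11, an X-linked subunit of the membrane arm, had the least evidence of any difference among the 6 genotypes within complex I (adjusted p = 0.96).

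The members counted with complex I that fell were Ndufv3, Ndufa13, Ndufa3 and, by its symbol only, Ndufa4l2. Ndufv3 (chr17:31520115-31531331), a small subunit of the NADH-oxidizing module, lay at 42.3, 42.1 and 45.5 CPM in Pole4-/- Trp53+/+ and at 25.6, 23.2 and 20.2 CPM in Pole4-/- Trp53-/- libraries. The groups were apart, and the change was -0.91 ± 0.22 (SE, adjusted p = 0.00368). Ndufa13, also called GRIM19, was at 52.4, 43.8 and 35.4 CPM against 34.9, 35.9 and 23.2 CPM. Its groups overlapped, although it was called at -0.49 ± 0.17 (SE, adjusted p = 0.031). Ndufa3 changed by -0.30 ± 0.10 (SE, adjusted p = 0.0275). These 2 calls held under 10 and 11 of 16 alternatives.

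In complex II, 3 of 4 genes rose, where 21.8% of all genes did, and none fell, although the call of Sdha held under 8 of 16 alternatives and that of Sdhd under 10. These were Sdha, the flavoprotein that oxidizes succinate, at 0.18, Sdhb, which carries the iron-sulphur clusters, at 0.43, and the membrane anchor Sdhd at 0.37. Sdhb (chr4:140961203-140979193) was at 41.2, 48.5 and 37.2 CPM in Pole4-/- Trp53+/+ libraries and at 62.2, 55.8 and 53.4 CPM in Pole4-/- Trp53-/- libraries, with an adjusted p of 0.0103 in edgeR. The lowest library of the second group stood above the highest of the first. The other anchor, Sdhc, was at 54.6, 55.8 and 46.8 CPM against 52.3, 48.8 and 44.2 CPM, and its change of -0.12 ± 0.10 (SE, adjusted p = 0.389) did not pass the test. In complex III, 2 of 8 members (25%) rose, near the 21.8% of all genes. They were Uqcrfs1, the Rieske iron-sulphur protein, at 0.32 and the core protein gene Uqcrc2 at 0.26. These calls held under 8 and 10 of 16 alternatives. The core protein gene Uqcrc1 was at 0.23 ± 0.10 (SE, adjusted p = 0.0591) and Uqcrb at 0.22 ± 0.16 (SE, adjusted p = 0.302).

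In complex V, 7 of 17 members (41.2%) rose and none fell, where 21.8% and 20.8% of all genes did. The F1 head, where ATP is made, supplied Atp5a1 (alpha, 0.37), Atp5b (beta, 0.48) and Atp5c1 (gamma, 0.47). Its small subunits Atp5d (delta) and Atp5e (epsilon) were not called, at -0.054 ± 0.075 (SE, adjusted p = 0.602) and -0.40 ± 0.18 (SE, adjusted p = 0.0853). The stalk and membrane parts supplied Atp5f1 (0.44), Atp5o (0.33), Atp5j (0.31) and Atp5g3 (0.40). Atp5b (chr10:128083273-128090391) was at 514, 524 and 521 CPM in Pole4-/- Trp53+/+ libraries and at 767, 714 and 696 CPM in Pole4-/- Trp53-/- libraries (adjusted p = 0.00379, edgeR). Every other library of the study was above the Pole4-/- Trp53+/+ range for Atp5b, the lowest being Pole4+/+ Trp53-/- replicate 1 at 548 CPM. Atp5c1 was at 97.8, 100.3 and 97.6 CPM against 137, 129.6 and 144 CPM (adjusted p = 0.00199, edgeR). Atp5h had the least evidence of a difference among the 6 genotypes in complex V (adjusted p = 0.966).

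In complex IV, 1 of 14 tested members (7.14%) rose and 3 (21.4%) fell, where 21.8% and 20.8% of all genes did. Cox5a, a core accessory subunit, rose by 0.34 ± 0.12 (SE, adjusted p = 0.0368), a call that held under 9 of 16 alternatives. Cox6a1, the isoform of Cox6a found in most tissues, was at 90.3, 85.9 and 84.7 CPM and at 76.1, 75.5 and 62.1 CPM, a change of -0.29 ± 0.077 (SE, adjusted p = 0.00716). Cox7a2l (chr17:83501918-83517330) is described as a link of complexes III and IV in supercomplexes, which were not measured here. It was at 119, 109 and 108 CPM in Pole4-/- Trp53+/+ libraries and at 74.6, 69.3 and 61.7 CPM in Pole4-/- Trp53-/- libraries. The groups were far apart relative to their spread, and Cox7a2l fell by 0.71 ± 0.12 (SE, adjusted p = 0.00022). In Pole4+/+ cells its level was 88.6, 94.0 and 97.1 CPM with and 80.1, 79.3 and 56.7 CPM without TRP53, a change of -0.37 ± 0.11 (SE, adjusted p = 0.0754) that did not pass the test although the groups did not overlap. Cox6c showed the least evidence of any difference in complex IV (adjusted p = 0.977).

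Of the 8 isoform genes with restricted tissue use, 5 were too low to test. Cox6a2 and Cox7a1, the muscle forms, reached at most 15 and 17 counts in a library, Cox8b at most 2 and Cox7b2 at most 1, and Cox8c had 0 in all 18 libraries. Cox6b2 (chr7:4751792-4753094), the form of Cox6b known from testis, was measurable and its decrease was larger than that of any other nuclear member tested. It was at 7.63, 8.42 and 5.89 CPM in Pole4-/- Trp53+/+ libraries (204, 101 and 44 counts), at 2.13, 0.794 and 2.93 CPM in Pole4-/- Trp53+/- libraries and at 0.181, 0.419 and 0.133 CPM in Pole4-/- Trp53-/- libraries (4, 8 and 2 counts). The levels thus stepped down with each lost Trp53 allele, with no overlap between neighbouring genotypes. The change was -1.90 ± 0.50 (SE, adjusted p = 0.0434) with loss of 1 allele and -4.86 ± 0.63 (SE, adjusted p = 3.91e-05) with loss of both. In Pole4+/+ cells Cox6b2 was at 1.93, 1.498 and 3.02 CPM in Trp53+/+, 1.88, 0.931 and 1.51 CPM in Trp53+/- and 1.25, 0.271 and 0.404 CPM in Trp53-/- libraries. The Trp53-/- libraries were all below the Trp53+/+ libraries there too, but the change of -1.63 ± 0.54 (SE, adjusted p = 0.0965) did not pass the test.

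Ndufa4l2, a relative of Ndufa4 known to be induced by low oxygen, was at 15.7, 7.51 and 8.16 CPM in Pole4-/- Trp53+/+ and 2.77, 1.83 and 0.331 CPM in Pole4-/- Trp53-/- libraries, a change of -2.64 ± 0.82 (SE, adjusted p = 0.019) whose call held under 12 of 16 alternatives. In Pole4+/+ cells it ran from 1.13 to 14.6 CPM within the Trp53-/- libraries alone, so its spread within a genotype was wide. Cox4i2, the form of Cox4 known from lung and from low oxygen, was at 0.674, 1.00 and 0.936 CPM against 0.589, 0.471 and 0.265 CPM in the same comparison. Its change of -0.92 ± 0.40 (SE, adjusted p = 0.075) did not pass the test.

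**Figure D4:**
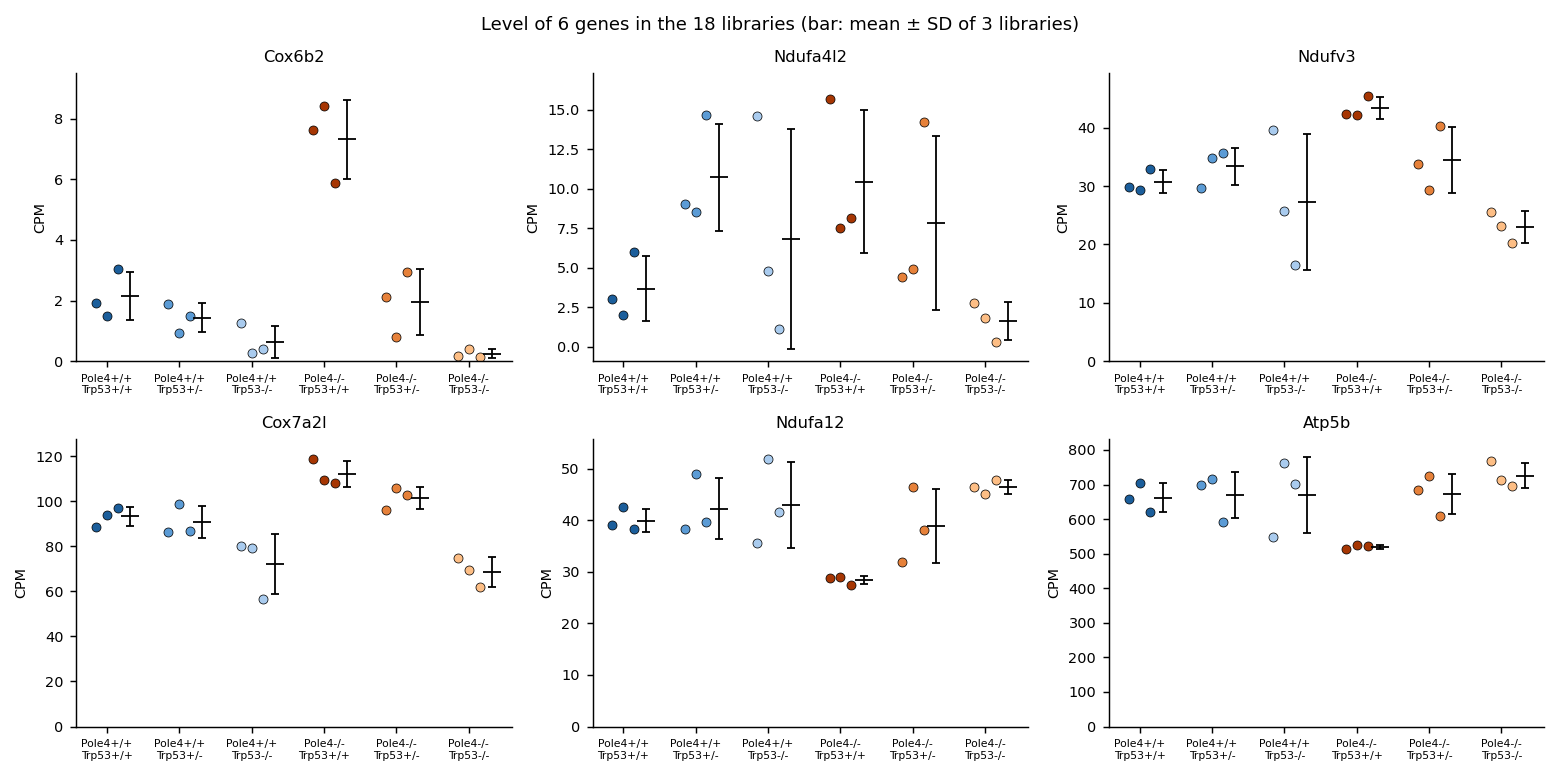
Points are the CPM of a gene in each of the 18 libraries by genotype, with mean ± SD of 3 libraries beside them. Cox6b2, Ndufa4l2, Ndufv3 and Cox7a2l are lower in Pole4-/- Trp53-/- than in Pole4-/- Trp53+/+ cells, and Ndufa12 and Atp5b are higher; for Ndufa12 and Atp5b the Pole4-/- Trp53+/+ libraries are the lowest of all 18.

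The median change of the mitochondrial messages was of the opposite sign to that of the nuclear ones. With their copies, the 13 genes had a median log2 fold change of -0.16 in Pole4-/- Trp53-/- against Pole4-/- Trp53+/+ cells. Of them 3 were called lower and none higher, where 20.8% of all genes fell and 21.8% rose. The 3 were mt-Nd4l, mt-Nd4 and mt-Nd5, which encode proton-pumping subunits of complex I and are neighbours in mtDNA, at chrM:9877-10173, chrM:10167-11544 and chrM:11742-13565. mt-Nd5 was at 2935, 2635 and 3163 CPM in Pole4-/- Trp53+/+ and at 1901, 1978 and 2368 CPM in Pole4-/- Trp53-/- libraries, and it has no copy among the matches. It fell by 0.48 ± 0.11 (SE, adjusted p = 0.00267). mt-Nd4 with its copy was at 3609, 3205 and 4095 CPM against 2605, 2707 and 3069 CPM. The groups were apart for mt-Nd4 and mt-Nd5 alike, and mt-Nd4 changed by -0.38 ± 0.12 (SE, adjusted p = 0.0182). mt-Nd4l changed by -0.27 ± 0.088 (SE, adjusted p = 0.0219). The calls of mt-Nd5, mt-Nd4l and mt-Nd4 held under 15, 11 and 10 of 16 alternatives.

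The genes nearest the start of the heavy strand transcript had values above 0, none of which passed the test. mt-Nd1 was at 2842, 2408 and 3027 CPM in Pole4-/- Trp53+/+ and 3082, 2570.1 and 3527 CPM in Pole4-/- Trp53-/- libraries, and mt-Nd2 at 1566, 1429 and 1946 CPM and 1760.1, 1546 and 2081 CPM. Their fold changes were 0.15 ± 0.17 (SE, adjusted p = 0.526) and 0.12 ± 0.16 (SE, adjusted p = 0.563). Between these ends lay mt-Co1 at -0.20 ± 0.13 (SE, adjusted p = 0.233), mt-Co2 at -0.093 ± 0.13 (SE, adjusted p = 0.602) and mt-Co3 at -0.29 ± 0.15 (SE, adjusted p = 0.128), the catalytic core of complex IV, all with their copies. The complex V genes mt-Atp8 and mt-Atp6 were at 0.01 ± 0.20 (SE, adjusted p = 0.976) and -0.10 ± 0.16 (SE, adjusted p = 0.669), and mt-Nd3 at 0.002 ± 0.17 (SE, adjusted p = 0.995). Beyond mt-Nd5 lay mt-Cytb, the cytochrome of complex III, at -0.21 ± 0.12 (SE, adjusted p = 0.153) and mt-Nd6, the only message of the light strand, at -0.16 ± 0.21 (SE, adjusted p = 0.595). Without the copies, mt-Co2 had a log2 fold change of -4.93 here, with Pole4-/- Trp53+/+ replicate 3, where most reads of the pair lay on mt-Co2, on one side of it.

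**Figure D5:**
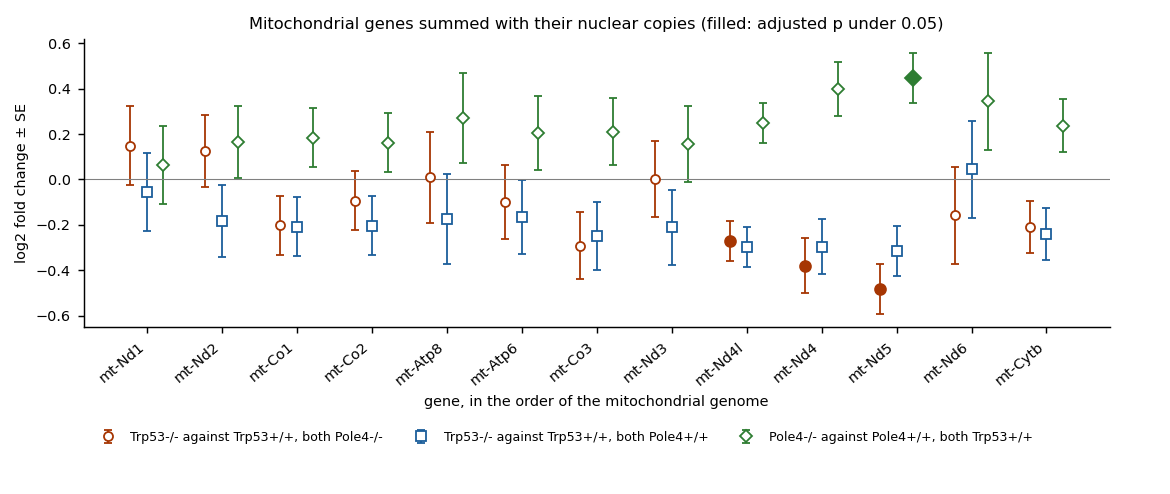
The 13 mitochondrial genes stand on the x axis in the order of mtDNA, and the y axis gives the log2 fold change ± SE from edgeR after each gene was summed with its copy, for 3 comparisons (filled: adjusted p under 0.05). In Pole4-/- against Pole4+/+ cells with TRP53 the values rise to 0.45 at mt-Nd5, and in Pole4-/- cells the loss of TRP53 gives -0.48 at the same gene.

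The same libraries, Pole4-/- Trp53+/+, serve as the reference of the comparison above and as a side of the next, so the values are set beside each other and not counted as separate evidence. In Pole4-/- against Pole4+/+ cells with intact Trp53, 1 of 92 members was called, where 3.98% of all genes were called. This was mt-Nd5, at 2139, 2025 and 2242 CPM in Pole4+/+ and 2935, 2635 and 3163 CPM in Pole4-/- cells, a change of 0.45 ± 0.11 (SE, adjusted p = 0.0375). All 13 mitochondrial genes with their copies had log2 fold changes above 0, from 0.064 to 0.45 with a median of 0.21, and mt-Nd5 alone among them passed the test. These values are relative to TMM scaling; by library totals the median of all genes moved by -0.29 in this comparison. The nuclear members had a median of -0.14, with 18 of 79 above 0, while all genes had a median of 0.012. For 30 nuclear members all Pole4-/- Trp53+/+ libraries were below all Pole4+/+ Trp53+/+ libraries, and for 9 they were above. Over both directions that is 39 of 79, where 41.1% of all genes were apart, and none of the nuclear members passed the test, although 18 had an unadjusted p under 0.05. Of all 92 members DESeq2 called 7 and voom 23. Atp5b and Ndufa12 were at -0.35 ± 0.12 (SE, adjusted p = 0.087) and -0.49 ± 0.14 (SE, adjusted p = 0.0631), and Cox6b2 at 1.78 ± 0.51 (SE, adjusted p = 0.0572). The count depended on 1 library at a time: no member was called when any of the 3 Pole4-/- Trp53+/+ libraries, or Pole4+/+ Trp53+/+ replicate 1 or 2, was left out. Nor was any called with log2 Xist as a covariate, and 2 of the 3 Pole4-/- Trp53+/+ libraries were male while all 3 Pole4+/+ Trp53+/+ libraries were female.

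The loss of 1 Trp53 allele in Pole4-/- cells was measured against the same Pole4-/- Trp53+/+ libraries again. In this comparison 3 members were called, mt-Nd4, mt-Nd5 and Cox6b2, all lower, where 5.12% of all genes were called. mt-Nd5 was at 1870.3, 2068 and 2152 CPM in Pole4-/- Trp53+/- cells and fell by 0.52 ± 0.11 (SE, adjusted p = 0.0234). mt-Nd4 fell by 0.45 ± 0.11 (SE, adjusted p = 0.0388) without its copy, and its change was -0.48 ± 0.12 (SE, adjusted p = 0.0357) with it. The nuclear members had a median of 0.16 with 64 of 79 above 0, against -0.005 for all genes, and none of them rose by edgeR's test. Other edgeR fits called members higher: 13 with the share of ribosomal RNA as a covariate, 10 with only the libraries compared, 4 without the filter and 3 with ribosomal RNA and mitochondrial genes left out of the scaling. DESeq2 called 7 members higher and 5 lower, and voom 15 and 6. With library totals in place of TMM scaling, which moved the median of all genes in this comparison by 0.295, 18 members were called, all higher. No member was called without any of the 3 Pole4-/- Trp53+/+ libraries or without Pole4-/- Trp53+/- replicate 2, and 1, then higher, without Pole4-/- Trp53+/- replicate 1.

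In Pole4+/+ cells the loss of Trp53 left the nuclear members at a median of 0.011, with none of 79 called by edgeR and 5 at an unadjusted p under 0.05. DESeq2 and voom called members there, 5 and 8 of both genomes together. Among all genes tested 4.6% were called. The mitochondrial genes with their copies had a median of -0.21 with 12 of 13 below 0 and none called. Without the copies, mt-Nd4l was called at -0.34 ± 0.089 (SE, adjusted p = 0.0381). Its level was 348, 315 and 309 CPM in Trp53+/+ and 256, 274 and 237 CPM in Trp53-/- cells, and with the copy its change was -0.30 ± 0.088 (SE, adjusted p = 0.0662). Without Pole4+/+ Trp53-/- replicate 1, 6 members were called, and without replicate 3 of that genotype or any Pole4+/+ Trp53+/+ library, none.

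Whether the loss of Trp53 acted differently in Pole4-/- and Pole4+/+ cells was tested as an interaction. None of the 92 members was called by edgeR, where 0.331% of all genes were called, and 16 had an unadjusted p under 0.05. DESeq2 called 5 and voom 1. The lowest p were those of Cox6b2, Cox4i2 and Ndufa4l2, with differences of -3.22 ± 0.82 (SE, adjusted p = 0.055), -1.98 ± 0.54 (SE, adjusted p = 0.0616) and -3.60 ± 1.12 (SE, adjusted p = 0.0773). For Atp5b the difference was 0.46 ± 0.16 (SE, adjusted p = 0.0948) and for Ndufa12 0.60 ± 0.20 (SE, adjusted p = 0.0859). The 23 nuclear members that rose in Pole4-/- cells were therefore not shown to respond differently from those in Pole4+/+ cells. With single libraries left out, 10 members were called without Pole4+/+ Trp53-/- replicate 2, 6 without replicate 3 of that genotype and 1 without Pole4+/+ Trp53+/+ replicate 3.

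Loss of POLE4 in cells that lacked Trp53 gave no called member, and neither did it in Trp53+/- cells, where 1 of 15710 genes, or 0.00637%, was called in each. With edgeR 11 members in Trp53-/- and 1 in Trp53+/- cells had an unadjusted p under 0.05. DESeq2 and voom called none in either, with 11 and 6 unadjusted in Trp53-/- and 2 and 3 in Trp53+/- cells. The mitochondrial genes with their copies lay above 0 in 13 of 13 cases in Trp53-/- cells, with a median of 0.27, and in 12 of 13 in Trp53+/- cells, with a median of 0.085. By library totals the median of all genes moved by -0.418 in Trp53-/- cells. The loss of 1 Trp53 allele in Pole4+/+ cells likewise gave no called member and 3 unadjusted, where 0.904% of all genes were called. DESeq2 called none there and voom 2. The 3 Trp53+/- libraries of that comparison were male and the 3 Trp53+/+ libraries female, so sex and genotype cannot be told apart in it. Over all 6 genotypes together, 15 members differed, 11 nuclear and 4 mitochondrial, where 28.5% of all genes did. The nuclear ones were Ndufa12, Ndufv1, Ndufv3, Cox4i2, Cox6a1, Cox6b2, Cox7a2l, Atp5a1, Atp5c1, Atp5d and Atp5o. The mitochondrial ones were mt-Nd4, mt-Nd4l, mt-Nd5 and mt-Cytb without the copies. With the copies in the fit mt-Cytb was no longer called, which left 3. This count rose to 27 without Pole4+/+ Trp53-/- replicate 1. It fell to 5 or 6 without any of the Pole4-/- Trp53+/+ libraries, to 7 or 8 without any of the Pole4-/- Trp53-/- libraries, to 8 or 9 without Pole4+/+ Trp53+/+ replicate 1 or 2, and to 9 without Pole4-/- Trp53+/- replicate 2.

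Among the nuclear members tested, those that rose in Pole4-/- cells without TRP53 had longer coding sequences by median. Their median coding length was 789 bases, against 360 bases for the 49 members not called and 336 bases for the 7 that fell. Of the 39 members longer than the median of 423 bases, 20 rose and 2 fell, with a median log2 fold change of 0.21. Of the 40 at or under it, 3 rose and 5 fell, with a median of 0.038. The members that rose also had more counts, with a median of 55.1 CPM against 31.8 CPM for those not called, and a higher count makes a small change easier to call. Over all genes tested, 21.8% rose and 20.8% fell. Coding length was measured for the nuclear members only, so the split cannot be set against other genes of like length. The part of length and level in the pattern was not tested.

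Promoter sequences from RefSeq, 250 bases before to 50 bases after the start on GRCm38.p6, were at hand for 66 of the 84 nuclear members. They were searched on both strands for the exact core GCGCATGC of NRF1, CCGGAAGT of ETS factors such as GABPA, and AAGATGGC of YY1, 3 factors known to act on respiratory genes. None of the cores contains another. The NRF1 core was in 10 members (15.2%) against 3.05% of 27025 genes with a promoter in the table, the YY1 core in 9 (13.6%) against 3.19%, and the ETS core in 5 (7.58%) against 4.31%. At least 1 of the 3 was in 23 members (34.8%) against 9.91% of all genes. Among members that rose with the loss of TRP53 in Pole4-/- cells, 1 of 19 with a promoter held the NRF1 core, 1 the ETS core and 3 the YY1 core. Among those not called, 8, 4 and 5 of 38 did. The 3 promoters below belong to members that rose, of which Ndufs3 only just passed the test, 1 for each core, which stands in capitals, as its reverse complement where it lies on the other strand.
Sdhb (chr4:140961021-140961320, plus strand, NRF1 core): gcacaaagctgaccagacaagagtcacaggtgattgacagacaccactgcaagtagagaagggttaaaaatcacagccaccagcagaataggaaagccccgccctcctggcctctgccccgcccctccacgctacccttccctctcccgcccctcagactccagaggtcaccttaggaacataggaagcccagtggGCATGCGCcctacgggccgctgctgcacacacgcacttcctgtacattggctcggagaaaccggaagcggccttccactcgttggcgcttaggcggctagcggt
Ndufs3 (chr2:90904672-90904971, minus strand, ETS core): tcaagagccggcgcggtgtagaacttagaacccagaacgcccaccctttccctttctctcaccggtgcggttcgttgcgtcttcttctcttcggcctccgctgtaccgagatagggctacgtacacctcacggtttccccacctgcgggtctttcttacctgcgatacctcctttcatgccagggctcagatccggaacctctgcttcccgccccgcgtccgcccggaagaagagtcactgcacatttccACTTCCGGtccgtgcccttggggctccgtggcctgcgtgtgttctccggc
Ndufs7 (chr10:80249199-80249498, plus strand, YY1 core): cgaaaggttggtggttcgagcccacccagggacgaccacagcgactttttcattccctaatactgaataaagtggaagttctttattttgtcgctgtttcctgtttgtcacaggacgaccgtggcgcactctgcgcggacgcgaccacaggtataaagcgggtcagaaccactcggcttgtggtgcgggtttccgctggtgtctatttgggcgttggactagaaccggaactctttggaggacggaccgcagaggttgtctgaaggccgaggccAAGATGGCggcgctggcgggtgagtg

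Genes around the respiratory chain were compared in the same test of Pole4-/- Trp53-/- against Pole4-/- Trp53+/+ cells, where 21.8% of all genes rose and 20.8% fell. Of 78 mitochondrial ribosomal protein genes, whose products translate the 13 mitochondrial messages, 44 rose and none fell, with a median log2 fold change of 0.42. Mrps11, Mrpl49 and Mrpl2 rose by 0.75 ± 0.13 (SE, adjusted p = 0.000288), 0.70 ± 0.12 (SE, adjusted p = 0.000295) and 0.58 ± 0.12 (SE, adjusted p = 0.00113). Of 13 carriers and subunits outside the rule, 8 rose and none fell, among them Cyc1, the cytochrome c1 of complex III, by 0.55 ± 0.12 (SE, adjusted p = 0.0018), and 2 enzymes of coenzyme Q synthesis, Pdss1 and Coq7, by 1.31 ± 0.25 (SE, adjusted p = 0.000711) and 0.75 ± 0.14 (SE, adjusted p = 0.00086). Of 46 assembly factors, 9 rose and 8 fell, with a median log2 fold change of 0.057, where 42.6% of all genes were called. The 3 with the lowest p over the 6 genotypes, Coa7, Sco1 and Cox10, needed to build complex IV, rose by 0.90 ± 0.17 (SE, adjusted p = 0.000636), 0.70 ± 0.13 (SE, adjusted p = 0.000577) and 0.75 ± 0.15 (SE, adjusted p = 0.00132).

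Of 29 measured genes for mtDNA upkeep, transcription and mRNA stability, 12 rose and 3 fell. Tfam, which packages mtDNA and starts its transcription, rose by 0.75 ± 0.14 (SE, adjusted p = 0.000717), and Fastkd5, which takes part in cutting mitochondrial transcripts, by 0.86 ± 0.11 (SE, adjusted p = 3.23e-05). Fastkd5 was at 9.73 to 11.5 CPM in Pole4-/- Trp53+/+ and 18.02 to 20.0 CPM in Pole4-/- Trp53-/- cells. Rrm2b, a ribonucleotide reductase subunit and known TRP53 target, changed by -0.45 ± 0.14 (SE, adjusted p = 0.0147) in Pole4-/- and by -0.54 ± 0.14 (SE, adjusted p = 0.0311) in Pole4+/+ cells and was thus lower in both. The mRNA of Tfam was thus higher in the same cells in which mt-Nd4l, mt-Nd4 and mt-Nd5 were lower. Of 12 tested regulators of respiratory genes, 7 rose and 3 fell. Ppargc1b, a coactivator, rose by 2.06 ± 0.41 (SE, adjusted p = 0.001), Gabpb2, a partner of the ETS factor GABPA, by 0.87 ± 0.085 (SE, adjusted p = 4.71e-06), and Yy1 by 0.41 ± 0.063 (SE, adjusted p = 0.000162). In Pole4+/+ cells without TRP53, Gabpb2 and Ppargc1b rose as well, by 0.59 ± 0.084 (SE, adjusted p = 0.000753) and 1.47 ± 0.38 (SE, adjusted p = 0.0362).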

How the data were processed

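RNA from 18 MEF cultures, 3 of each of 6 genotypes, was amplified to cDNA with the NuGen Ovation RNA-Seq System V2 and sequenced as paired ends. Per the labels, the authors trimmed reads, aligned them to GRCm38 with STAR 2.5.2 and deposited expected counts per Ensembl gene from RSEM 1.3.0, which divides reads that match several genes; 6.141% of the values were not whole. Of the Ensembl identifiers, 51719 were matched to a symbol. Here the expected counts were rounded, and no library was found to be a duplicate of another of its genotype. Pairs from different genotypes were not checked for this. Genes were kept by filterByExpr and tested in R 4.3.3 with the quasi-likelihood test of edgeR 4.0.16 (TMM scaling, robust fit, all 18 libraries in one model with a mean for each genotype, leaving 12 degrees of freedom), with Benjamini-Hochberg adjustment over 15710 genes and a threshold of 0.05. The script was tested on simulated counts. Libraries held 9535971 to 35319918 counts, so a gene with few counts in a library carried a wide counting error.

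The members and gene lists were chosen with earlier results of these data known. Named one by one were all mitochondrial members, in each pairwise comparison the called members with the 5 highest and 5 lowest fold changes and the 3 lowest p, the member with the lowest and the highest p over 6 genotypes in each complex, the tissue isoforms, and at most 3 genes from each other list; the other called members, and a few more, were added after their values were seen. Alternatives were DESeq2 1.42.0, voom with quality weights (limma 3.58.1), other scalings, no filter, only the libraries compared, a replicate block, covariates, and each library left out in turn. Summing mitochondrial genes with their nuclear copies was chosen after seeing the data. Copies were found by matching transcripts of the GRCm38 annotation, at 99% identity over at least 100 bases. Of the 45 correlations between libraries that share a replicate number, after removal of genotype means, the median was 0.098 and 22 were over 0.1. The numbers are not known to pair the cultures and were not taken as pairs. Correlations were highest, at 0.383 to 0.586, between replicates 2 of the Pole4+/+ genotypes and Pole4-/- Trp53+/-. In each of these genotypes replicate 2 also had the highest nuclear sum, at 4803, 4996, 5146 and 5031 CPM. What these libraries shared was not tested. The result of 1 member is not reported here.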

Additional observations from a re-analysis of the deposited data

Results flagged for a closer look

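A signal lay on 4 nuclear copies of mitochondrial genes, which are no members of the gene set and enter no comparison of single genes. The median over the 18 libraries was 2611 CPM for Gm28661, the copy of mt-Co2. It was 2365 CPM for Gm10925, the copy of mt-Atp6, 2170 CPM for Gm28437, the copy of mt-Co3, and 670 CPM for Gm29216, the copy of mt-Co1. All lie far above the level that a count of 3 in a library allows. For the first 3 the copy held more counts than the mitochondrial gene in at least 17 of 18 libraries. How the reads of these pairs were divided before deposit was not tested.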

How the results depend on the processing

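The number of members called at an adjusted p under 0.05 depended on the settings. For the loss of both Trp53 alleles in Pole4-/- cells it was 33, and 4 with scaling by library totals, and 19 to 30 with 1 library left out. Without the filter it was 25, with 21 higher and 4 lower, against 23 and 10. The same loss in Pole4+/+ cells gave 1, but 5 with DESeq2, 8 with voom, and 0 with library totals, without the filter, with only the libraries compared or with the copies summed, and 0 to 6 with 1 library left out. The loss of 1 allele in Pole4-/- cells gave 3, but 12 with DESeq2, 18 with library totals (18 higher and 0 lower), 6 with ribosomal RNA and mitochondrial genes left out of scaling, 6 without the filter, 15 with only the libraries compared, 21 with voom, 1 with log2 Xist and 16 with the share of ribosomal RNA as a covariate, and 0 to 2 with 1 library left out. In Pole4+/+ cells it gave 0, and 2 with voom. For Pole4-/- against Pole4+/+ cells with Trp53+/+ the count was 1, but 7 with DESeq2, 14 with library totals (0 higher and 14 lower), 15 with only the libraries compared, 23 with voom, 0 with log2 Xist and 8 with the share of ribosomal RNA, and 0 to 1 with 1 library left out. The interaction gave 0, but 5 with DESeq2, 1 with voom and 0 to 10 with 1 library left out. Over all genotypes the count was 15, but 35 with voom, 9 with log2 Xist and 5 to 27 with 1 library left out. The cause of these differences was not tested. With a replicate block, although the numbers are not known to pair the cultures, the counts were 35, 1, 6 and 3 in the comparisons with 33, 1, 3 and 1, and 2 for the interaction. Of 767 values of single genes under the alternatives, 614 kept their side of the threshold, 152 were no longer called and 1 became called. No value of a called gene changed direction, whereas mt-Co2, mt-Atp6, mt-Co3, mt-Nd3 and mt-Atp8, which were not called, had values on both sides of 0. Cox6b2, Cox7a2l, Ndufa12 and Ndufv3 were called under every alternative run for the loss of Trp53 in Pole4-/- cells. Genes with few counts, such as Cox4i2, and pairs of identical sequence are the limits of depth here.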
